A study of Mus musculus with 12 samples.

Results

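Cytosolic ribosomal proteins are the proteins of the ribosomes that translate messenger RNAs in the cytosol. They were taken here as the protein-coding genes named Rpl or Rps with a number and an optional a, x, y or l, together with Rplp0, Rplp1, Rplp2 and Rpsa. The S6 kinases and the pseudogenes were left out. This rule found 80 of the 17090 genes in the table: 46 of the large subunit, 31 of the small subunit and 3 of the stalk, a flexible arm of the large subunit. Transcripts were measured by RNA sequencing in MTΔECad cells, a mesenchymal mouse breast cancer line whose name records the loss of E-cadherin (Cdh1), while they turned into fat cells in culture. Cells were harvested at 0 h, 6 h, day 3, day 5, day 7 and day 10, with 2 libraries per time point from independent experiments. The protocol gave human BMP2 at 200 ng/ml over the first 3 days, added 2 µM rosiglitazone, an agonist of the fat cell receptor PPARγ, over the following 4, and continued rosiglitazone without BMP2 through the last 3. By that order the 6 h and day 3 cells had BMP2 alone, the day 5 and day 7 cells both agents, and the day 10 cells had come to rosiglitazone alone. No untreated cells of the same ages were analysed, so treatment, time in culture and cell density cannot be told apart.

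Library totals lay between 12820802 and 17570366 counts. The summed level of 8 white adipocyte markers was 34020 to 35410 CPM (counts relative to the library's size, scaled with TMM factors) at day 10, against 26.3 to 31.7 CPM at 0 h, and Cdh1 stayed at or under 1.09 CPM in all 12 libraries. Leukocyte markers (2 of 4 in the table) summed to at most 8.17 CPM, endothelial markers (4 of 4) to at most 3.98 CPM and muscle markers (1 of 4) to at most 1.17 CPM in any library. Of the defining markers, Ptprc was at 0 counts at 0 h, day 3, day 7 and day 10, and Kdr was at 0 at 0 h, 6 h, day 5, day 7 and day 10. Values are raw counts from the deposited table, given as CPM with the mean ± SD over n = 2 libraries. Log2 fold changes carry their standard error (SE). Calls are at an adjusted p below 0.05 from edgeR's quasi-likelihood test with Benjamini-Hochberg adjustment over all 12740 genes tested, with the spread pooled over the 6 time points. By these calls the leukocyte marker Cd68 was higher at day 10 than at 0 h (1.625, SE 0.28, adjusted p = 4.53e-05). So were the endothelial marker Pecam1 (6.475, SE 0.65, adjusted p = 1.24e-07) and the muscle marker Des (2.193, SE 0.663, adjusted p = 0.00588). The endothelial marker Cdh5 was lower (−6.299, SE 1.47, adjusted p = 0.00127) and Tek was not called.

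A ribosome joins a small subunit, which reads the messenger RNA, to a large subunit, which forms the peptide bonds, and most of their proteins are present once per ribosome. Growing cells spend much of their transcription on ribosomal RNA and these proteins. Most of their messenger RNAs start with a run of pyrimidines after a cap-adjacent C, the 5′ terminal oligopyrimidine (TOP) motif, through which the kinase mTOR and the RNA-binding protein LARP1 adjust their translation and stability. Their short, abundant messenger RNAs have also left many processed pseudogenes in mammalian genomes, so that reads from a ribosomal protein gene can match several places.

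The TOP motif was looked for around the annotated starts, since it is the feature these genes are best known to share. RefSeq start sites of GRCm38.p6 were matched for 60 of the 80 genes. A run of at least 8 C or T letters beginning with C, read on the gene's own strand within 50 bases on either side of the start, was found in 51 of the 60 (85%), against 22 of 69 mitochondrial ribosomal protein genes (31.9%) and 8645 of all 27025 genes with a start in the table (32%). The 9 genes without one were Rpl10l, Rpl23, Rpl24, Rplp0, Rps13, Rps28, Rps3, Rps4x and Rpsa. Such a match describes the letters near an annotated start, not a mapped transcript end. The sequences below run from 40 bases before the annotated start to 20 bases from it, with the longest run of pyrimidines in capitals. Rps27l has 2 runs of 9 bases, of which the one farther from the start is in capitals and the other, beginning 12 bases before the start, is in lower case. They show 3 genes with a run at the start, then 1 gene with none (Rpl23), and lastly 2 paralogues, which are set against their partners further on. Rplp2 is at chr7:141447611-141447670 (plus strand), Rps9 at chr7:3704001-3704060 (plus strand), Rpl15 at chr14:18270967-18271026 (minus strand), Rpl23 at chr11:97782420-97782479 (minus strand), Rps27l at chr9:66946046-66946105 (plus strand, 1 of its 2 annotated starts) and Rpl22l1 at chr3:28805468-28805527 (plus strand), all in GRCm38.p6.
Rplp2: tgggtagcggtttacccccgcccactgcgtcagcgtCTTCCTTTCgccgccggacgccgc
Rps9: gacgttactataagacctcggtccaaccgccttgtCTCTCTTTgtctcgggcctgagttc
Rpl15: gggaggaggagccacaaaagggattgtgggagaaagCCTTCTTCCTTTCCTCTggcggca
Rpl23: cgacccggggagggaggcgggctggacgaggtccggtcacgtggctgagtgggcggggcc
Rps27l: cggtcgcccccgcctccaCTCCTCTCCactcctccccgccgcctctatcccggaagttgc
Rpl22l1: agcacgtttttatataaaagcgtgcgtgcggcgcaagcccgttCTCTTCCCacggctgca

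In Rplp2 the run began 4 bases before the annotated start and was 9 bases long, in Rps9 it began 5 bases before and was 8 long, and in Rpl15 it began 4 bases before and was 17 long. Another 3 short words were counted in the whole 300-base window from 250 before to 50 after the start, on both strands. CCGGAAG, a core of ETS factor sites, was present for 24 of 60 genes (40%), against 9.93% of all genes and 37.7% of the mitochondrial ribosomal protein genes. CACGTG, the E-box bound by MYC among others, was present for 6 of 60 (10%), against 8.09% of all genes, and TATAAA, the TATA box, for 7 of 60 (11.7%), against 15.7%. The first of these words was therefore shared with the mitochondrial ribosomal protein genes, whereas the run of pyrimidines was at the level of all genes there.

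The 80 genes took up a falling part of the transcriptome from day 3 on. Their counts summed to 1.45% and 1.40% of the library at 0 h, 1.42% and 1.39% at 6 h, 1.68% and 1.69% on day 3, 1.03% and 0.982% on day 5, 0.673% and 0.709% on day 7, and 0.491% and 0.503% on day 10. The 6 h libraries overlapped those of 0 h, the day 3 libraries were the highest, and from day 5 each time point lay under the one before with no overlap. The means were 1.42 ± 0.032% at 0 h, 1.69 ± 0.0092% at day 3 and 0.497 ± 0.0089% at day 10 (SD, n = 2), the last being 0.349 times the 0 h mean. Both subunits followed this course: the large subunit with the stalk held 0.301 ± 0.0052% at day 10, against 0.891 ± 0.017% at 0 h, and the small subunit 0.195 ± 0.0037%, against 0.533 ± 0.014%. A share is relative to the whole library, and the most abundant gene of the day 10 libraries, the lipid desaturase gene Scd1, took 8.22% and 7.2% of counts by itself. With the most abundant gene of each library left out of the total, the share was 0.538 ± 0.0055% at day 10 and 1.45 ± 0.033% at 0 h. In bulk samples, fewer cells with these transcripts and less of them per cell cannot be told apart.

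**Figure D1:**
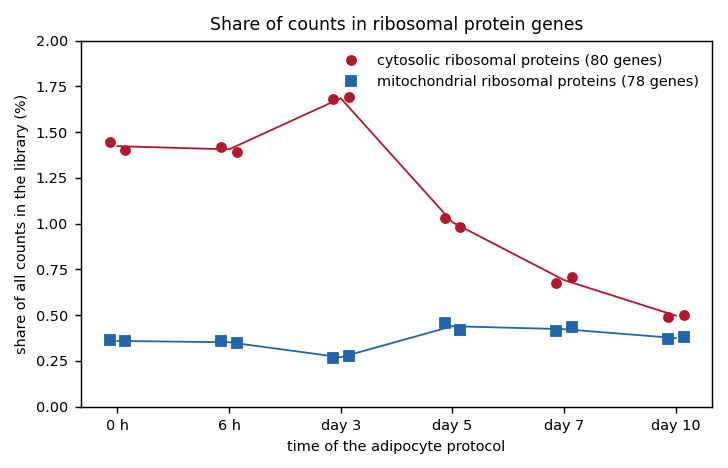
Share of all counts (y axis, %) held by the 80 cytosolic (red circles) and 78 mitochondrial (blue squares) ribosomal protein genes at each time point (x axis). Each symbol is a library and each line joins the means of 2 libraries. The cytosolic share peaks at day 3 (1.69%) and is lowest at day 10 (0.497%), whereas the mitochondrial share is lowest at day 3 (0.269%) and highest at day 5 (0.439%).

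The proteins of mitochondrial ribosomes, which translate the few messages of the mitochondrial genome, did not follow this course. Their 78 genes held 0.359 ± 0.0044% of counts at 0 h, 0.351 ± 0.0088% at 6 h, 0.269 ± 0.0074% on day 3, 0.439 ± 0.027% on day 5, 0.423 ± 0.014% on day 7 and 0.374 ± 0.0054% on day 10. The ratio of the cytosolic to the mitochondrial sum, in which the library total cancels, was 3.97 at 0 h, 4.00 at 6 h, 6.26 on day 3, 2.29 on day 5, 1.63 on day 7 and 1.33 on day 10. At day 10 against 0 h, 42.8% of all genes tested were called higher and 39.9% lower. Of the 76 mitochondrial genes tested, 46 were called higher and 11 lower, with a median log2 fold change of 0.32. With library totals in place of TMM factors, the same genes split into 26 higher and 26 lower with a median of −0.03, so the direction of the mitochondrial list rests on the scaling. Mrps6 had the largest called rise of that list (log2 fold change 2.05, SE 0.093, adjusted p = 1.69e-12) and Mrpl52 the largest called fall (−0.55, SE 0.091, adjusted p = 2.7e-05).

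Day 10 was set against 0 h first, as the widest span of the protocol. Of the 78 cytosolic genes tested, 71 were lower at day 10, 0 were higher and 7 were not called, and the median log2 fold change was −1.18. Among all 12740 genes tested, 39.9% were called lower and 42.8% higher, 82.7% in all, with a median of 0.06. At an unadjusted p under 0.05, edgeR passed 71 of the 78 in either direction and DESeq2 66; DESeq2 called 65 lower and 0 higher at its adjusted p. The genes of the large subunit and stalk (43 of 47 lower, median −1.20) and of the small subunit (28 of 31 lower, median −1.16) had like counts. With library totals in place of TMM factors the median of all genes moved by −0.35 and that of the 78 genes to −1.53. A change of scaling moves all genes nearly alike, so it cannot test the fall relative to all genes.

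**Figure D2:**
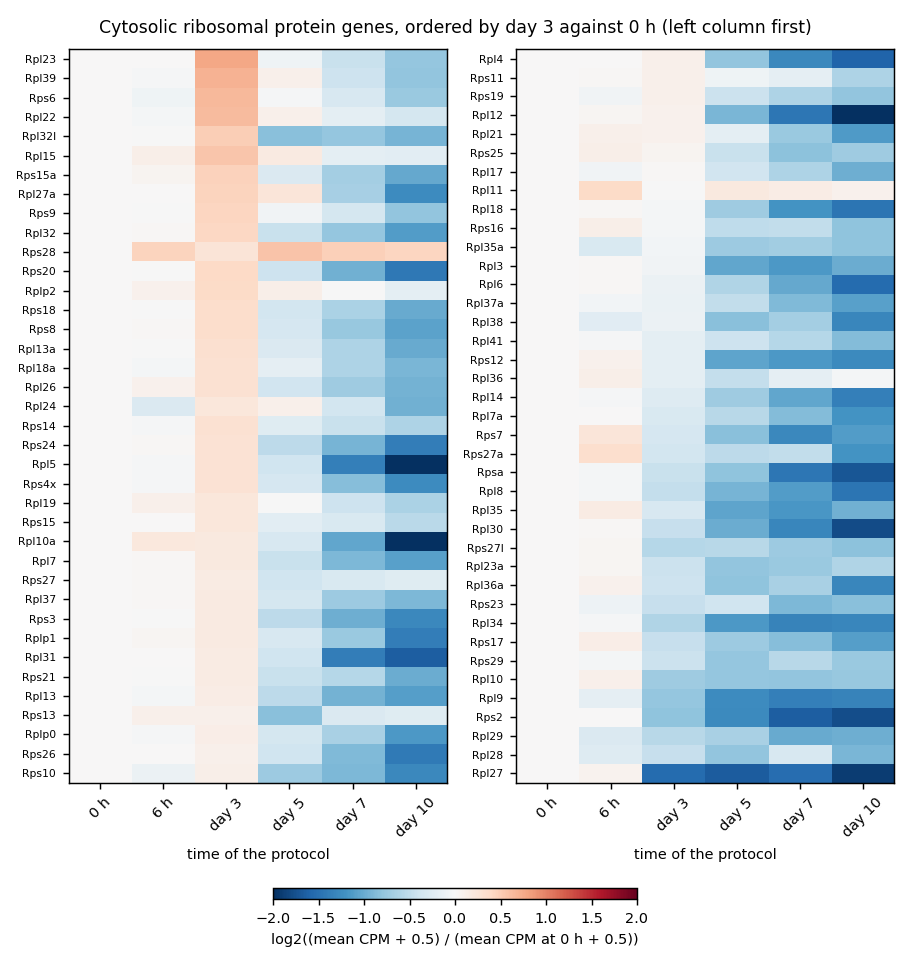
Log2 ratio of the mean CPM at each time point (x axis, n = 2 libraries) to the mean at 0 h, with 0.5 CPM added to both, for 77 of the 78 cytosolic ribosomal protein genes tested (y axis), ordered by their fold change at day 3 from the top of the left panel to the foot of the right. Blue is lower and red higher than 0 h, with colours limited at 2. The day 3 column goes from red to blue down the panels, and the day 10 column is blue for nearly every gene, with Rps28 and Rpl11 as the exceptions above 0.

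The fall was present among the well-measured genes. Among the 36 genes with a mean of at least 50 CPM, 35 were called lower (median −1.08, from −1.73 to −0.20), and among the 42 tested below that level, 36 were (median −1.34). Some of these sparse genes, such as Rpl36a and Rpl38, passed the filter only by their counts at early time points. The sparse genes are therefore not separate support for the fall. Rpl4, which lies along the peptide exit tunnel, had 576 and 564 CPM at day 10, against 1777 and 1677 CPM at 0 h. Its log2 fold change was −1.60 (SE 0.071, adjusted p = 1.31e-12), and the 2 groups were far apart. Rpl8, a core protein next to the site of peptide bond formation, had 555 and 542 CPM at day 10, against 1528 and 1492 CPM at 0 h (−1.46, SE 0.080, adjusted p = 2.03e-11). Rpsa, which is also known as a laminin receptor, fell the most among the 36, to 34.0 and 34.6 CPM at day 10, against 114 and 114 CPM at 0 h (−1.73, SE 0.076, adjusted p = 1.08e-12).

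The 4 largest falls called were of genes with few counts. Rpl36a had 3 and 1 counts at day 10, against 14 and 21 counts at 0 h (log2 fold change −2.76, SE 0.59, adjusted p = 0.000367). Rpl38, whose loss alters skeletal patterning in mice, had 2 and 2 counts at day 10, against 15 and 19 counts at 0 h (−2.73, SE 0.70, adjusted p = 0.00172). These 2 falls rest on a handful of reads and have wide errors. Rpl12, at the base of the stalk, had 1.70 and 0.996 CPM at day 10, against 7.64 and 7.97 CPM at 0 h (−2.55, SE 0.28, adjusted p = 2.76e-07). Rpl10a, the protein of the other stalk of the large subunit, at the site where transfer RNAs leave, had 1.34 and 1.22 CPM, against 6.68 and 8.28 CPM at 0 h (−2.55, SE 0.27, adjusted p = 1.48e-07). In all 4 genes the day 10 libraries lay below the 0 h libraries without overlap. The genes were picked for these falls, so the gap is not separate support.

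The 7 genes not called at day 10 were Rpl11, Rpl23a, Rpl36, Rplp2, Rps13, Rps27 and Rps28. Of these, Rplp2 was the one with many counts. Rps28 had the highest fitted value, 0.61 (SE 0.38, adjusted p = 0.148), on 19 and 17 counts at day 10, against 16 and 13 counts at 0 h. Rpl11, which with Rpl5 and a small ribosomal RNA forms a particle that can bind the p53 regulator MDM2, had 6.90 and 9.27 CPM at day 10, against 7.49 and 7.60 CPM at 0 h (0.11, SE 0.17, adjusted p = 0.574). Its partner Rpl5 had 5.56 and 5.97 CPM at day 10, against 27.5 and 27.9 CPM at 0 h (−2.26, SE 0.16, adjusted p = 5.06e-10). Of the 50-base stretches of Rpl5, 14.6% occur in no other annotated gene, and 46% of those of Rpl11. How shared reads were counted is not known, so the levels of both are uncertain. Among called genes the smallest fall was that of Rpl15 (−0.21, SE 0.091, adjusted p = 0.0448), with 40.3 and 44.9 CPM at day 10, against 46.0 and 52.4 CPM at 0 h. The next smallest was that of Rpl22 (−0.36, SE 0.066, adjusted p = 9.81e-05).

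Among the 3 stalk proteins, which recruit elongation factors to the ribosome, Rplp2 parted from Rplp0 and Rplp1. Rplp0, the base of the stalk, had 594 and 570 CPM at day 10, against 1307 and 1276 CPM at 0 h (log2 fold change −1.15, SE 0.075, adjusted p = 2.1e-10). Rplp1 had 212 and 215 CPM, against 540 and 571 CPM at 0 h (−1.38, SE 0.077, adjusted p = 2.8e-11). Rplp2, which pairs with Rplp1 in the stalk, had 109 and 105 CPM, against 122 and 124 CPM at 0 h. Its log2 fold change of −0.20 (SE 0.094) missed the threshold at adjusted p = 0.0643. Rplp2 was called lower with upper-quartile factors (adjusted p = 0.0438) and with library totals (−0.55, adjusted p = 3.62e-05). It was also called lower with no filter (−0.226, adjusted p = 0.0143) and with only the 4 libraries compared (−0.211, adjusted p = 0.00501). Whether Rplp2 was called thus varied with the processing, and the reason was not tested. The ratio of Rplp2 to Rplp1 counts, in which library scaling cancels, was 0.226 and 0.217 at 0 h, 0.229 and 0.227 at 6 h, 0.244 and 0.266 on day 3, 0.304 and 0.294 on day 5, 0.398 and 0.332 on day 7, and 0.515 and 0.489 on day 10. From day 3 on, both libraries of each time point lay above both of the time point before. The ratio of Rplp0 to Rplp1 was 2.42 and 2.23 at 0 h and 2.8 and 2.66 at day 10. These ratios and those given below were chosen after their values were seen, and none was tested. A transcribed pseudogene of Rplp2, Rplp2-ps1, had counts of its own, 203 and 190 CPM by library totals at day 10, against 312 and 317 CPM at 0 h, and reads shared between the 2 could have been counted for either. Rplp2 was not alone in this. Also left out by the rule were Rpl14-ps1, with 126 and 122 CPM at day 10, against 400 and 409 CPM at 0 h, and Rpl37rt, with 83.0 and 86.2 CPM, against 205 and 204 CPM.

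**Figure D3:**
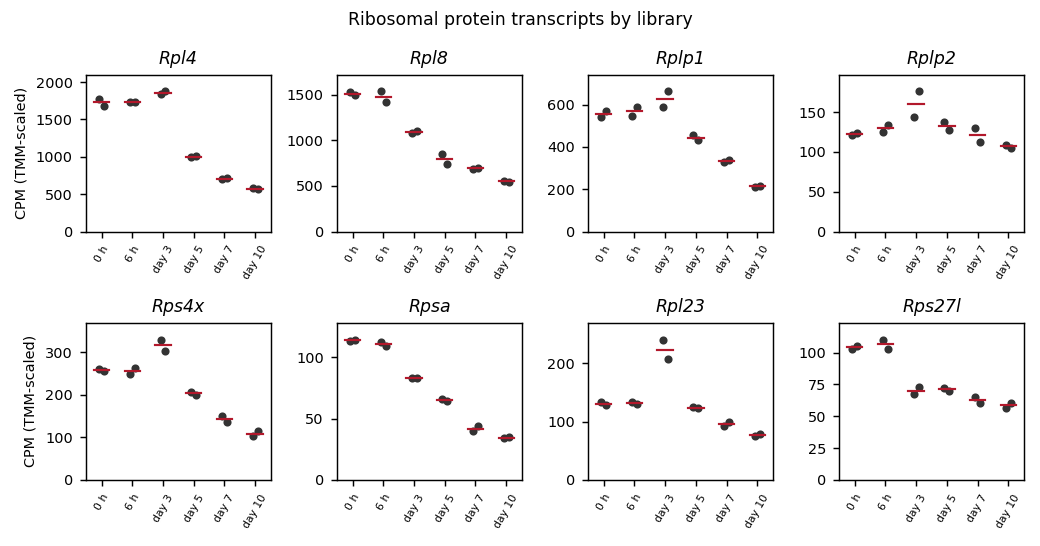
CPM with TMM scaling (y axis, from 0, a different range in each panel) of 8 ribosomal protein genes by time point (x axis). Points are libraries and red bars the means of 2. Rpl4 stays near its 0 h level up to day 3 and falls from day 5. Rplp1 is slightly higher at day 3 than at 0 h (log2 fold change 0.17, SE 0.075, adjusted p = 0.0492 from edgeR) and falls from day 5. Rps4x has 302 to 329 CPM at day 3, against 255 to 260 CPM at 0 h, and falls from day 5. Rpl8, Rpsa and Rps27l are already lower at day 3. Rpl23 stands at 207 to 241 CPM at day 3, against 128 to 134 CPM at 0 h. Rplp2 ends at 105 to 109 CPM, close to its 0 h values of 122 to 124 CPM.

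At 6 h against 0 h, 0 of the 78 genes were called in either direction, where 0.746% of all genes were, 0.534% higher and 0.212% lower. Just 1 gene passed an unadjusted p under 0.05 with edgeR and 0 did with DESeq2. The median log2 fold change was 0.01. Among the 36 genes with at least 50 CPM the values ran from −0.08 to 0.11.

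At day 3 against 0 h the genes went both ways. Of the 78, 26 were called higher, 11 lower and 41 were not called, with a median log2 fold change of 0.11. Among all genes 33.1% were called higher and 35.0% lower, so the count of rises is close to that of genes in general and the count of falls is below it. The 36 genes with at least 50 CPM leaned to rises, with 21 higher and 6 lower (median 0.19), and the 42 tested below that level had 5 higher and 5 lower (median −0.07). The counts depended on 1 library and on the scaling: without replicate 2 of 0 h, 17 genes were called higher, and with upper-quartile factors or library totals 35 were higher and 7 lower. The 2 largest rises called were those of Rpl23 and Rpl39. Rpl23, a protein at the interface of the subunits, had 241 and 207 CPM at day 3, against 134 and 128 CPM at 0 h (0.77, SE 0.076, adjusted p = 1.24e-07). Rpl39, a small protein that lines the peptide exit tunnel, had 322 and 275 CPM, against 183 and 187 CPM at 0 h (0.69, SE 0.092, adjusted p = 4.85e-06). In both genes the day 3 libraries stood clear of the 0 h ones, which is not separate support, since they were picked as the largest rises. The rises also included Rps6 (0.67, SE 0.14), the small subunit protein phosphorylated by the S6 kinases, Rpl22 (0.64, SE 0.066), Rpl15 (0.56, SE 0.088) and Rps9 (0.43, SE 0.066), with adjusted p-values of 0.000364, 2.12e-07, 2.52e-05 and 2.23e-05.

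The falls at day 3 were led by Rpl27 and Rps2. Rpl27 had 3.68 and 3.95 CPM at day 3, against 12.9 and 11.1 CPM at 0 h (log2 fold change −1.65, SE 0.22, adjusted p = 3.65e-06), and stayed between 2.57 and 4.51 CPM in the 6 later libraries. Rps2, near the site where messenger RNA enters the small subunit, had 9.27 and 11.3 CPM, against 18.7 and 17.8 CPM at 0 h (−0.83, SE 0.14, adjusted p = 6e-05). Most of the change in Rpl27 over the protocol was thus already present at day 3, before rosiglitazone was due. Abundant genes were among the falls too: Rpl8 had 1080 and 1100 CPM at day 3, against 1528 and 1492 CPM at 0 h (−0.47, SE 0.078, adjusted p = 4.86e-05), and Rpsa 83.5 and 83.3 CPM, against 114 and 114 CPM (−0.45, SE 0.070, adjusted p = 2.44e-05). The other genes called lower were Rpl9, Rpl10, Rpl30, Rps27l, Rpl7a, Rpl14 and Rpl41.

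Ratios between genes of 1 library restate this split without any scaling. They use the same counts of genes already picked above, so they are not separate support for it. The ratio of Rpl8 to Rpl4 counts was 0.860 and 0.889 at 0 h, 0.886 and 0.816 at 6 h, 0.587 and 0.587 on day 3, 0.851 and 0.732 on day 5, 0.985 and 0.977 on day 7, and 0.962 and 0.962 on day 10. The day 3 libraries were the lowest of the 12, 1 day 5 library was still below those of 0 h and 6 h, and the day 7 and day 10 libraries were above them. That of Rpl23 to Rpl4 was 0.0752 and 0.0764 at 0 h, 0.0769 and 0.0751 at 6 h, 0.131 and 0.110 on day 3, 0.126 and 0.122 on day 5, 0.133 and 0.139 on day 7, and 0.129 and 0.139 on day 10. This ratio was higher at day 3 than in any library of 0 h or 6 h and remained so to day 10.

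From day 3 to day 5, when rosiglitazone was added, the fall became general. Of the 78 genes, 57 were lower at day 5 than at day 3, 0 were higher and 21 were not called (median −0.55), against 31.0% lower and 34.0% higher among all genes (median 0.01). At an unadjusted p under 0.05, edgeR passed 59 in either direction and DESeq2 52, with 48 called lower and 0 higher by DESeq2. Of the 36 genes with at least 50 CPM, 35 were lower. The exception was Rps27l, with 72.5 and 69.5 CPM at day 5, against 67.3 and 73.0 CPM at day 3 (log2 fold change 0.02, SE 0.077, adjusted p = 0.849). The mitochondrial ribosomal protein genes moved the other way, with 68 of 76 higher and 0 lower (median 0.73). Rpl32l and Rps13 had the largest falls called. Rpl32l had 10 and 8 counts at day 5, against 36 and 30 counts at day 3 (−1.94, SE 0.37, adjusted p = 0.000193), and Rps13 had 6 and 8 counts, against 18 and 21 counts (−1.55, SE 0.44, adjusted p = 0.0057). Both are sparse. Among abundant genes Rpl4 had 994 and 1008 CPM at day 5, against 1841 and 1876 CPM at day 3 (−0.89, SE 0.070, adjusted p = 7.78e-09).

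The fall went on more slowly afterwards. At day 7 against day 5, 37 of the 78 genes were lower and 0 higher (median −0.32), against 18.8% lower and 19.0% higher among all genes. At an unadjusted p under 0.05, edgeR passed 43 and DESeq2 38, with 33 called lower and 0 higher by DESeq2. At day 10 against day 7, 31 were lower and 0 higher (median −0.31), against 13.2% lower and 15.1% higher among all genes. There edgeR passed 42 at an unadjusted p under 0.05 and DESeq2 35, with 28 called lower and 0 higher by DESeq2; with library totals the count was 48. Rpl31, a protein at the mouth of the exit tunnel, had 10.4 and 10.6 CPM at day 7, against 21.4 and 20.8 CPM at day 5 (−1.01, SE 0.13, adjusted p = 1.33e-05). Rpl5 had 10.5 and 10.3 CPM at day 7, against 18.6 and 22.9 CPM at day 5 (−1.0, SE 0.14, adjusted p = 3.61e-05). These 2 had the largest falls called between days 5 and 7. Between days 7 and 10 they were Rpl10a, with 1.34 and 1.22 CPM at day 10, against 3.32 and 3.46 CPM at day 7 (−1.40, SE 0.31, adjusted p = 0.00248), and Rpl12, with 1.70 and 0.996 CPM, against 2.01 and 3.09 CPM (−0.95, SE 0.34, adjusted p = 0.0446). The call of Rpl12 was lost with DESeq2 (adjusted p = 0.0635), without replicate 2 of day 7 (0.357) or of day 10 (0.348), and without any single library of 0 h, 6 h or day 5 (0.0508 to 0.0549).

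**Figure D4:**
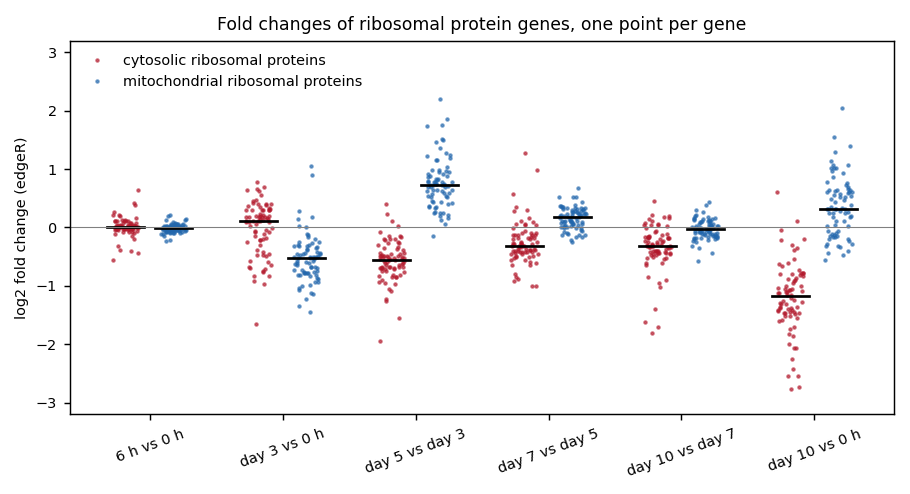
Log2 fold changes from edgeR (y axis) of the 78 cytosolic (red) and 76 mitochondrial (blue) ribosomal protein genes tested, for 5 successive comparisons and for day 10 against 0 h (x axis). Each point is a gene and black bars are medians. The cytosolic medians are near 0 at 6 h, 0.11 at day 3 and below 0 in each later comparison, and the mitochondrial medians are −0.53 at day 3 against 0 h and 0.73 at day 5 against day 3.

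Over the 6 time points, 71 of the 78 genes differed in the joint test of any difference, where 94.7% of all genes did. By mean CPM, 41 of the 78 had their highest value at day 3, 23 at 6 h, 13 at 0 h and 1 at day 5. For all genes tested the shares were 18.2% at day 3, 17.6% at 6 h, 17.6% at 0 h and 9.60% at day 5. The lowest value came on day 10 in 62, on day 7 in 9, on day 5 in 5, and at 0 h and day 3 in 1 each. Of all genes tested, 24.8% had their lowest mean on day 10, 12.0% on day 7, 7.80% on day 5, 19.5% at 0 h and 18.3% on day 3. These positions were not tested.

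Levels were compared between genes per length, as RPKM, the CPM divided by the length in units of 1000 bases, with the gene lengths of the deposited table. The highest means over the 12 libraries were those of Rpl8 (1181 RPKM), Rplp1 (977 RPKM) and Rpl4 (891 RPKM). Rpl8 had 1752 ± 29.7 RPKM at 0 h, 1713 ± 94.9 at 6 h, 1265 ± 16.8 on day 3, 919 ± 88.4 on day 5, 804 ± 10.8 on day 7 and 636 ± 10.1 on day 10. Rpl4 had 1215 ± 49.6 RPKM at 0 h, 1307 ± 17.2 at day 3 and 401 ± 6.33 at day 10, and Rplp1 had 1187 ± 47.9, 1339 ± 110 and 456 ± 4.19 RPKM at these times. At day 3 the means of these 3 genes lay within 1265 to 1339 RPKM, and the spread of Rplp1 covered the other two. The lowest gene tested was Rpl28 with a mean of 0.766 RPKM and 1 to 16 counts per library, so the measured levels spanned 1543-fold. Rpl3l and Rpl10l were lower still and were not tested.

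These levels were set beside the sequence that each gene shares with others. Sequence shared with other genes was measured as the part of a gene's 50-base stretches that occurs in no other annotated GENCODE transcript. Over 79 genes this part ran from 4.91% to 100% with a median of 64.1%, and across these genes its Spearman correlation with the mean RPKM was 0.32. These genes share the libraries and many share sequence, and no test was made. The relation is loose: Rpl8 was 93.7% unique and had 1181 RPKM, and Rplp1 was 40% unique and had 977 RPKM, whereas Rpl35 was 4.91% unique and had 1.99 RPKM, and Rpl34 was 89% unique and had 3.35 RPKM. None of the sources used here says how the authors counted reads that match several genes. At day 10 against 0 h, 47 of 51 genes at least 50% unique were lower (median −1.12), and 23 of 26 genes below that (median −1.31). At day 7 against day 5 the counts were 27 of 51 and 10 of 26, and at day 10 against day 7 they were 24 of 51 and 7 of 26. At day 3 against 0 h the medians were 0.13 and −0.09, with 19 higher and 7 lower of the 51, and 7 higher and 4 lower of the 26. The differences between the more and the less unique genes were not tested. Among all genes tested, 39.9% were lower at day 10 against 0 h. For day 7 against day 5 and day 10 against day 7 the shares lower were 18.8% and 13.2%. At day 3 against 0 h, 33.1% of all genes were higher and 35.0% lower. The level of a gene that shares much of its sequence, such as Rpl35, is uncertain, since the counting could have split or dropped its reads.

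**Figure D5:**
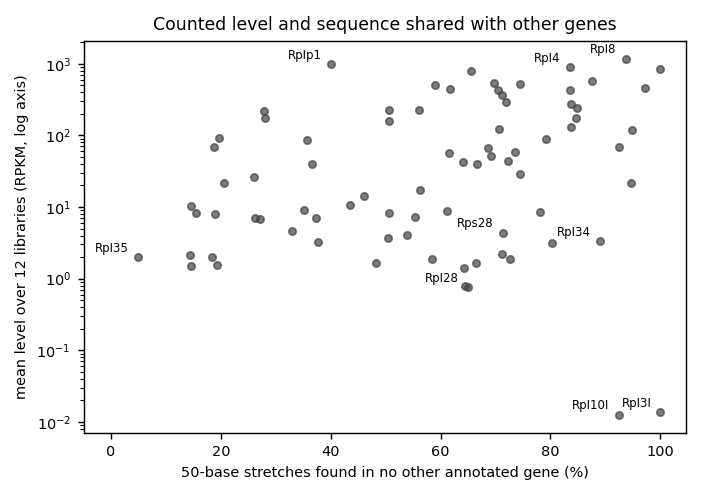
Mean level over 12 libraries (y axis, RPKM, log axis) against the part of a gene's 50-base stretches found in no other annotated gene (x axis, %) for 79 cytosolic ribosomal protein genes, 1 point each, with 9 genes named. Genes with a high unique part are found at high levels (Rpl8, 1181 RPKM) and at low ones (Rpl34, 3.35 RPKM).

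Paralogues, copies of a ribosomal protein gene with their own expression, were set against their partners by their counts. Rpl3l, made in heart and skeletal muscle, had at most 2 counts in any library, and Rpl10l, made in testis, at most 1, against 103 and 107 counts of Rpl3 and Rpl10 at day 10 over both libraries. Neither muscle nor testis paralogue was therefore counted above 3 reads per time point. Rpl39l, a testis paralogue of Rpl39, was not analysed here. Rpl22l1 had 10.3 and 11.2 CPM at day 10, against 30.0 and 32.7 CPM at 0 h (log2 fold change −1.54, SE 0.11, adjusted p = 8.14e-10), while Rpl22 had 224 and 222 CPM, against 289 and 281 CPM. The ratio of Rpl22l1 to Rpl22 counts was 0.104 and 0.117 at 0 h, 0.113 and 0.127 at 6 h, 0.0695 and 0.0774 on day 3, 0.0749 and 0.0780 on day 5, 0.0563 and 0.0576 on day 7, and 0.0461 and 0.0505 on day 10. It was lower in each later library than in any of 0 h and 6 h. Rpl7l1, a relative of Rpl7, had a ratio to Rpl7 of 1.03 and 1.01 at 0 h, 1.06 and 0.987 at 6 h, 0.587 and 0.635 on day 3, 0.919 and 0.841 on day 5, 1.18 and 1.15 on day 7, and 1.19 and 1.16 on day 10. It was lowest on day 3, still below the 0 h and 6 h libraries on day 5, and above them on days 7 and 10.

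Rps27l, which p53 can induce, was counted far above Rps27: 630 and 791 counts, against 26 and 24 counts, at day 10, and 1403 and 1700 counts, against 38 and 38 counts, at 0 h. In CPM, Rps27l had 56.4 and 60.6 at day 10, against 103 and 105 at 0 h (log2 fold change −0.83, SE 0.078, adjusted p = 2.97e-08). Rpl36al was likewise counted above Rpl36a, with 23.3 and 25.8 CPM at day 10, against 47.5 and 46.1 CPM at 0 h. By 50-base stretches Rps27 was 53.8% unique, Rps27l 83.8% and Rpl36a 14.5%. How reads matching several genes were counted is not known. Which transcript of each pair was the more abundant therefore cannot be told from these counts. Rps4x, the X-linked small subunit gene, had 102 and 114 CPM at day 10, against 260 and 255 CPM at 0 h (−1.25, SE 0.078, adjusted p = 1.16e-10).

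Ribosomal protein genes whose names fall outside the rule were counted apart. At day 10 against 0 h, 6 of 7 were lower and 1 higher (median log2 fold change −1.08). For all genes tested the shares were 39.9% lower and 42.8% higher. Rack1, a scaffold on the small subunit, had 577 and 582 CPM at day 10, against 1648 and 1615 CPM at 0 h (−1.49, SE 0.076, adjusted p = 7.48e-12). With library totals 6 were lower and 0 higher. Adding these 7 to the 80 gave a share of counts of 0.567 ± 0.012% at day 10 and 1.64 ± 0.033% at 0 h.

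Other genes of the translation machinery were lower at day 10 as well. Of 37 initiation factors tested, 32 were lower and 1 higher (median −0.76), and of 11 elongation and termination factors 10 were lower and 1 higher (median −1.42). Among all genes tested, 39.9% were lower and 42.8% higher. The fall was large for Eif3b, a core subunit of the eIF3 complex (−1.80, SE 0.13, adjusted p = 4.83e-08), for Eif6, which keeps free large subunits apart from small ones (−1.67, SE 0.095, adjusted p = 4.86e-11), and for Eif5a, the factor that carries hypusine (−2.05, SE 0.088, adjusted p = 7.94e-13). Eef1e1, which belongs to the complex of transfer RNA synthetases, fell by 2.09 (SE 0.11, adjusted p = 7.15e-12). The rises were of Eif4a2, an RNA helicase paralogue of Eif4a1 (1.11, SE 0.077, adjusted p = 4.71e-10), and of Eef2k, the kinase that inhibits elongation factor 2 (0.21, SE 0.083, adjusted p = 0.0296). The call of Eef2k was lost with upper-quartile factors, with library totals, with no filter and with DESeq2, under each of which 0 of the 11 were higher.

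Of 17 TOP messenger RNAs that are not ribosomal or fall outside the rule, 15 were lower and 1 was higher (median −1.06). This list shares genes with the initiation and elongation lists. Over all genes tested the shares were 39.9% lower and 42.8% higher. Npm1, a nucleolar chaperone of ribosome assembly, had 98.6 and 108 CPM at day 10, against 727 and 678 CPM at 0 h (−2.77, SE 0.079, adjusted p = 4.48e-15), and Nap1l1, a histone chaperone, had 82.5 and 84.8 CPM, against 348 and 335 CPM (−2.03, SE 0.074, adjusted p = 1.05e-13). The 7 chaperones and escorts of single ribosomal proteins all were called lower (median −1.13). Grwd1, which escorts Rpl3 by work on its yeast counterpart, had 11.1 and 11.1 CPM at day 10, against 110 and 102 CPM at 0 h (−3.25, SE 0.12, adjusted p = 1.06e-13). Ltv1, an assembly factor of the small subunit, fell by 1.73 (SE 0.10, adjusted p = 8.26e-11).

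The regulators of TOP messenger RNAs did not move as 1 group. Of 14 genes of the mTOR pathway and its TOP effectors, 8 were higher and 3 lower at day 10 (median 0.26). Among all genes tested, 42.8% were higher and 39.9% lower. With library totals 3 of the 14 were higher and 4 lower (median −0.09), so the direction of this list also rests on the scaling. Deptor, an inhibitor bound to mTOR, had 284 and 285 CPM at day 10, against 40.1 and 41.9 CPM at 0 h (2.80, SE 0.077, adjusted p = 2.56e-15). Mtor itself had 265 and 243 CPM, against 98.5 and 106 CPM at 0 h (1.31, SE 0.070, adjusted p = 1.39e-11). Larp1, which binds the TOP motif, had 96.0 and 88.8 CPM, against 211 and 200 CPM (−1.15, SE 0.10, adjusted p = 3.68e-08), and Eif4ebp1, a repressor of cap-dependent translation, fell by 0.32 (SE 0.085, adjusted p = 0.00242). Transcript levels say nothing of the activity of the kinase.

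The calls were also counted for genes with and without the features given at the start. Of the 58 tested genes with a matched start, 50 had the run of pyrimidines and 47 of these were lower at day 10 (median −1.18), against 6 of the 8 without (median −1.20). At day 3, 15 of the 50 were higher and 8 lower, against 3 higher and 1 lower of the 8. Among all genes tested, 39.9% were lower at day 10, and 33.1% were higher and 35.0% lower at day 3. Rpl23, printed above without a run, and Rpl15, with the longest of those printed, were both among the rises at day 3. Genes with CCGGAAG were lower at day 10 in 22 of 24 cases (median −1.03) and those without in 31 of 34 (median −1.23).

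Gene length is a further property that these genes share. Their median length in the deposited table was 706 bases, against 2890 bases over all genes tested, and 60 of the 80 were under 1000 bases. The 965 other genes under 1000 bases had a median log2 fold change of 0.38 on day 10 against 0 h, −0.22 on day 3 against 0 h and 0.32 on day 5 against day 3. In each of these comparisons that median had the opposite sign to that of the 78 cytosolic ribosomal protein genes, and the part of length in their course was not tested further.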

How the data were processed

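RNA sequencing counts of 12 libraries (6 time points, 2 independent experiments each) were analysed. The deposited table holds raw counts per Entrez gene with a gene length, per the file headers. The submitters' processing notes name STAR and mm10, and the labels' protocols name a stranded total RNA kit and also poly-A+ RNA. The counting tool, its annotation, its strand setting and its treatment of reads matching several genes are given in none of the sources used here. Of 17090 genes, 17045 were matched to symbols with RefSeq of GRCm38.p6, 4 with GENCODE, and 41 kept their identifier.

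The fit used edgeR 4.0.16 (R 4.3.3), with TMM factors, filterByExpr with minimum count 10 and minimum total 15, robust quasi-likelihood, 1 mean per time point, and 6 residual degrees of freedom. The filter left 12740 genes and removed 4350. Of the 80 ribosomal protein genes 78 passed, 65 of them with at least 10 counts in every library, and Rpl3l and Rpl10l did not. SEs are the log2 fold change divided by the square root of F, with a prior count of 0.125. RPKM used the CPM and the deposited length. Alternatives were median-of-ratios and upper-quartile factors, library totals, no filter, a mean of at least 1 CPM, DESeq2 1.42.0, a replicate block, only the 4 libraries compared, and each library left out. Replicate libraries differed by more than counting error (chi-square per degree of freedom 4.37 to 16.4), with a biological coefficient of variation of 0.0737. P-values measure the spread between the experiments. The fit was tested on simulated counts. Promoter letters came from RefSeq, GRCm38.p6.

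The genes and lists were chosen with earlier results of these data known. Genes given per library were taken by rule: the called genes with the largest falls and rises (4 each at day 10 against 0 h, 2 each otherwise), the 3 highest and 3 lowest by RPKM, the stalk genes, Rpsa and paralogue pairs, and from each other list at most 2 called rises and 2 called falls. Some genes that enter the counts are not reported singly here. Others were picked after their values were seen: Rpl5, Rpl11, Rpl15, Rps28, Rps6, Rps9, Rpl34, Rpl35, the further falls at day 3 and the ratios between genes. Of the lists fixed for cell types, the mesenchymal one (6 genes) summed to 2953 to 3291 CPM at day 10, against 9190 to 9562 CPM at 0 h. Of its genes 3 were called higher and 3 lower, against 42.8% higher and 39.9% lower among all genes.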

Additional observations from a re-analysis of the deposited data

How the results depend on the processing

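The directions of the counts and medians reported for the 78 genes held under the alternatives run, apart from the 6 h median, which was −0.003 with library totals and lay between −0.004 and 0.025 when libraries were left out. Library totals, which moved the median of all genes by −0.35, −0.13, −0.20 and −0.12, gave medians of −1.532 (day 10 against 0 h), −0.689 (day 5 against day 3), −0.513 (day 7 against day 5) and −0.437 (day 10 against day 7), and 48 genes lower at day 10 against day 7. Upper-quartile factors and library totals each gave 7 genes lower at day 3 against 0 h, where 11 were reported. With the genes outside the rule the share of counts was 1.64% at 0 h, 1.62% at 6 h, 1.96% on day 3, 1.15% on day 5, 0.789% on day 7 and 0.567% on day 10, and without the most abundant gene 1.44% at 6 h, 1.74% at day 3, 0.719% at day 7 and 0.538% at day 10. Leaving out each library in turn gave 64 to 72 genes lower at day 10 against 0 h (median −1.252 to −1.146), 17 to 26 higher (17 without replicate 2 of 0 h) and 8 to 12 lower at day 3 (0.088 to 0.119), 46 to 56 lower at day 5 against day 3 (−0.623 to −0.543), 28 to 38 at day 7 against day 5 (−0.358 to −0.247), 21 to 34 at day 10 against day 7 (−0.342 to −0.296), and 67 to 71 in the joint test. The replicate numbers did not pair the libraries: over 15 pairs of time points, deviations from the group means correlated between −0.0913 and 0.193, 1 above 0.1. The fit with the replicate block changed no count by more than 1.5 times: 71 genes were lower at day 10 against 0 h (median −1.186), 26 higher and 12 lower at day 3, 59 lower at day 5 against day 3, and 37 and 31 lower in the last 2 comparisons. Of the values for single genes under these settings, 754 kept their side of the threshold, 14 lost the call (Rpl12, Rpl28, Rpl32l and Rpl10), 6 gained it (Rplp2) and 0 changed direction. An alternative added after seeing the data kept the 65 genes with at least 10 counts in every library: 59 were lower at day 10 against 0 h (median −1.102), and 26 higher and 11 lower at day 3. The causes of these shifts were not tested.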
